A study of Mus musculus with 38 samples.

Results

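RUNX1 binding sites that were listed in lymphoid progenitors after a Notch signal, and not before it, are described here. The sites lay where a coactivator had already been listed before the signal. They were chosen by the presence and absence of peaks in the deposited lists, under 3 conditions. The site was a Phase 1 RUNX1 peak not annotated as a promoter, it shared no base with a RUNX1 peak of the LP list, and it shared at least 1 bp with an LP peak of p300 or Med12. Of 38399 Phase 1 RUNX1 peaks, 29155 lay outside promoters, 11095 of these (38.1%) were Phase 1-specific, and 2255 met all 3 conditions. These 2255 are called primed sites below, a working name for the rule and not a functional state. Absence from the LP list does not show absence of RUNX1, since signal below its cutoff was not measured. The other 8840 Phase 1-specific sites, with neither coactivator in LP, are called unprimed sites. A further 17034 distal Phase 1 RUNX1 sites were shared with LP and also had LP p300 or Med12, and are called constant sites. The whole series held 359759 peaks in 17 lists.

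All samples came from Cas9-LP, a mouse line of Ebf1-deficient lymphoid progenitors (LP) from fetal liver that carries a Cas9 knock-in at Rosa26, so every group shared the Ebf1 deficiency and the Cas9. LP cells were kept on OP9 stroma, and Phase 1 cells had spent 2 days on OP9-DLL4, a stroma that displays DLL4 to engage Notch. A later culture on the same stroma was called Phase 2, which was profiled for Notch1-IC alone. The antibodies recognised RUNX1, p300, Med12, CTCF and Notch1-IC, the released intracellular part of Notch1. Further Phase 1 cells received control guide RNAs (sgCont) or pools of guides against Cbfb (sgCbfb) or Med12 (sgMed12), and further LP cells received sgCont or sgCTCF. Each list combined 2 replicates, so no difference could be set against the spread between cultures, and the tests and intervals below cover the counting of peaks alone. The lists give no value for the targeted genes, so the guides' effect on Cbfb or Med12 could not be checked here. The study reports depletion of Cbfb, CTCF and Med12 protein by immunoblot in LP cells that received these guides. A line that lacks Ebf1 is a model of T-lineage entry and not a thymic population.

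RUNX1 binds DNA together with its partner Cbfb and acts as activator or repressor throughout blood development. p300 is an acetyltransferase that marks active enhancers, and Med12 belongs to the kinase module of Mediator, the complex that links enhancer-bound factors to RNA polymerase II. In lymphoid progenitors a Notch signal starts the T-lineage program, in which released Notch1-IC acts through the DNA-binding protein RBPJ.

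The following 200 bp windows around RUNX1 peak centres show 6 primed sites that stand for the features described below. They are the plus strand of mm10, and capitals mark a RUNX string (TGTGGTT or TGCGGTT), a PU.1 string (GAGGAAGT) or an AP-1 string (TGACTCA or TGAGTCA) on either strand. The Cage1 site (chr13:38010032-38010231) had the highest RUNX1 score of all primed sites, and its capitals mark RUNX. The Aopep site (chr13:63112682-63112881, RUNX) had the highest RUNX1 score among primed sites with a Phase 1 or Phase 2 Notch1-IC peak. The Tox (chr4:6902172-6902371, RUNX) and Ikzf1 (chr11:11716690-11716889, RUNX) sites lay in introns of genes of the T-lineage and progenitor lists. The Prdm1 site (chr10:44539277-44539476, PU.1) and the Notch1 site (chr2:26525828-26526027, AP-1) were intergenic, without a RUNX string, and had Med12 in the sgCbfb list alone among the guide lists.
Cage1 site: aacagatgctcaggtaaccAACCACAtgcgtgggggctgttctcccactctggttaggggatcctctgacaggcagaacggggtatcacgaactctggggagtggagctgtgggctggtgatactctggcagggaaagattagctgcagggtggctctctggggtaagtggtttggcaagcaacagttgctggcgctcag
Aopep site: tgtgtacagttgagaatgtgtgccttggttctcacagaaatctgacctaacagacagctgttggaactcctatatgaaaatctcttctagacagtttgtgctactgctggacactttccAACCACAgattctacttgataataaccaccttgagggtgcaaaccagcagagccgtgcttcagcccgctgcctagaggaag
Tox site: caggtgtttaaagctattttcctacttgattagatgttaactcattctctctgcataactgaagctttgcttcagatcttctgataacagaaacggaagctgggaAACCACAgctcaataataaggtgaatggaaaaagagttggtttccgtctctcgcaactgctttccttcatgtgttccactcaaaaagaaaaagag
Ikzf1 site: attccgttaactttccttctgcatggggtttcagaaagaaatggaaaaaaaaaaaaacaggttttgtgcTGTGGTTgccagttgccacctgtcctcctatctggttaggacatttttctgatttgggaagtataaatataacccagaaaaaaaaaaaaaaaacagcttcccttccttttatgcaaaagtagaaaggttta
Prdm1 site: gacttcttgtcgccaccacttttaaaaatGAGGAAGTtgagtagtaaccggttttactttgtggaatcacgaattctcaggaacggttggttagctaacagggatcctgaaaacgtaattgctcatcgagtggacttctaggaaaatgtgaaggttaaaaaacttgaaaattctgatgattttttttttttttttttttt
Notch1 site: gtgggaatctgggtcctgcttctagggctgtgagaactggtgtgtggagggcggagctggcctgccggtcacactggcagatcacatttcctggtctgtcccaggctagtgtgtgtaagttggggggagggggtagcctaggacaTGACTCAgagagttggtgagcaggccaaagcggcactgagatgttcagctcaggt

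The Cage1 RUNX string lay 78 bp from the peak centre, whereas those of the Tox, Aopep and Ikzf1 sites lay 8, 22 and 28 bp from it. GC content of the 6 windows ran from 35.0% at Prdm1 to 58.5% at Notch1.

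Most primed sites rested on p300. LP p300 alone was found at 1400 of them, LP Med12 alone at 223 and both at 632. The rule chose sites by the presence of these peaks, and their scores are given only as a description. The median score of the LP p300 peak was 23.7 at primed sites (quartiles 18.3 and 33.7) and 62.2 at constant sites, in a list whose lowest score was 15. For LP Med12 the medians were 21.2 and 46.8. The LP coactivator peak scored under 30 at 68.8% of the primed sites with p300 and at 76.8% of those with Med12. Primed sites were therefore mostly places with a low-scored LP coactivator peak. Their Phase 1 RUNX1 scores were likewise low, with a median of 26 (quartiles 19.3 and 39.1, highest 431.0), against 22.5 at unprimed and 52.8 at constant sites. The scores are the authors' peak scores and were compared within 1 list only. Where scores of several lists are given for a site below, each describes its own list.

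Few primed sites sat at the edge of the rule in bp of overlap. The smallest coactivator overlap that let a site in was 4 bp, the median was 308 bp, and 34 sites (1.51%) shared under 100 bp. On the other side, 55 unprimed sites (0.622%) had an LP coactivator peak with its edge nearer than 100 bp. An LP RUNX1 peak lay nearer than 100 bp, edge to edge, at 40 primed sites (1.77%), nearer than 500 bp at 150 (6.65%) and nearer than 1000 bp at 274 (12.2%). At unprimed sites the last 2 shares were 2.40% and 5.68%. Among the 10 highest-scored primed sites, 7 had an LP RUNX1 peak nearer than 1000 bp, so a high score went with a close LP RUNX1 neighbour in this small set. By score, in contrast, many primed sites lay near the cutoff of a list. The Phase 1 RUNX1 score was under 30 at 60.8% of them, where the lowest score was 15. With a score of at least 30 required, 885 of 2255 primed sites remained for Phase 1 RUNX1 and 708 for the LP coactivator.

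To ask what became of the coactivators, LP p300 and Med12 peaks outside promoters were looked up in the Phase 1 lists. At primed sites nearly all were still listed. Of 2029 LP p300 peaks at primed sites, 1863 (91.8%, 95% Wilson interval 90.5% to 92.9%) overlapped a Phase 1 p300 peak, and 166 (8.18%) did not, where 25.1% of all distal LP p300 peaks were absent from Phase 1. LP p300 peaks without RUNX1 in either stage were kept at 1597 of 4455 (35.8%, interval 34.5% to 37.3%). For LP Med12, 733 of 851 peaks at primed sites were kept (86.1%, interval 83.6% to 88.3%) and 118 (13.9%) were absent, against a background of 24% of all distal LP Med12 peaks. Without RUNX1, 410 of 1791 were kept (22.9%, interval 21.01% to 24.9%). These classes are set by the RUNX1 peak that the rule itself used, so the shares are a description and no test is given. Unprimed sites, which had RUNX1 in Phase 1 but no LP coactivator, had Phase 1 p300 at 77.5% and Phase 1 Med12 at 73.9%. The median LP score differed little between these classes, at 23.6 and 21.7 for p300 and at 21.1 and 19.5 for Med12. At constant sites 92.8% of LP p300 and 92.5% of LP Med12 peaks were kept, and at peaks with RUNX1 in LP alone 31.7% and 18.8% were.

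The kept coactivator peaks at primed sites mostly ranked higher in Phase 1 than in LP. For each factor, the peaks listed in both stages were ranked by score in each stage. Kept p300 peaks at primed sites stood at a median percentile of 11.9 in LP and 32.1 in Phase 1, and 1475 of 1866 (79.05%, interval 77.1% to 80.8%) had the higher percentile in Phase 1. Kept Med12 peaks there rose from 8.24 to 19.5, with 533 of 737 (72.3%, interval 69.0% to 75.4%) higher in Phase 1. At peaks without RUNX1 the p300 percentiles were 13.9 and 13.0 and 47.2% were higher, and for Med12 they were 9.01 and 6.55 and 35.4%. At peaks with LP RUNX1 alone the medians went from 25.8 to 13.0 for p300 and from 21.7 to 8.59 for Med12. The classes are set by the RUNX1 peaks that the rule used, and at primed sites the LP peaks ranked are those that let the sites in. A rise at primed sites and a fall at sites with LP RUNX1 alone are therefore not independent of the rule. The ranks are a description and were not tested.

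**Figure D1:**
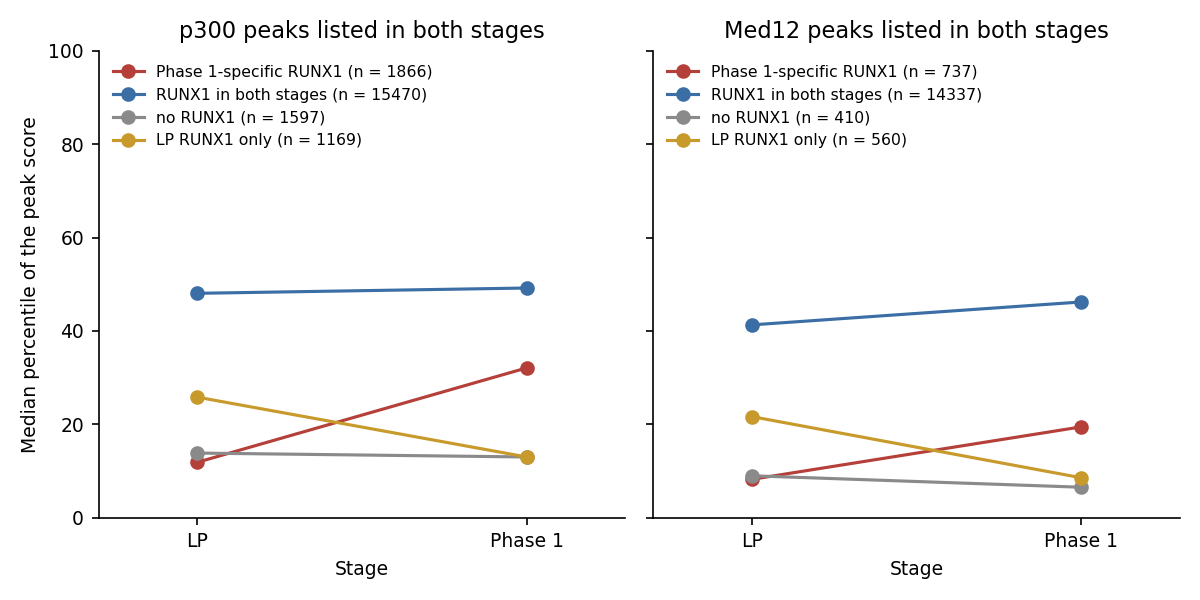
Median percentile of the peak score (vertical axis, 0 to 100) in LP and Phase 1 for p300 (left) and Med12 (right) peaks listed in both stages, by the RUNX1 class of the peak, ranks being taken over all peaks of the factor listed in both stages. Percentiles at Phase 1-specific RUNX1 sites rose from 11.9 to 32.1 for p300 and from 8.24 to 19.5 for Med12, and those at peaks with LP RUNX1 alone fell. The classes rest on the RUNX1 peaks that the rule used, so the lines are a description.

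Sites that had p300 in LP mostly held both factors in Phase 1, and sites with LP Med12 alone did so less often. Both factors were listed in Phase 1 at 1077 of the 1400 sites with LP p300 alone (76.9%, interval 74.6% to 79.1%) and at 506 of the 632 with both (80.1%, interval 76.8% to 83.0%). Of the 223 sites with LP Med12 alone, 124 had both in Phase 1 (55.6%, interval 49.0% to 62.0%) and 66 still had Med12 alone (29.6%). Neither factor was listed in Phase 1 at 130 primed sites (5.76%). Seen from the sites, Med12 was thus listed in Phase 1 at 1101 of the 1400 that had started with p300 alone (78.6%, interval 76.4% to 80.7%).

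Primed sites were more often occupied in Phase 1 than unprimed ones. Phase 1 p300 was listed at 1995 primed sites (88.5%, interval 87.1% to 89.7%) and 6851 unprimed sites (77.5%, interval 76.6% to 78.4%), a difference of 10.97 percentage points (interval 9.34 to 12.5; odds ratio 2.23, adjusted exact p = 5.44e-33). Phase 1 Med12 was listed at 1837 (81.5%) and 6530 (73.9%), a difference of 7.59 points (interval 5.71 to 9.40; odds ratio 1.55, adjusted exact p = 7.53e-14). Matching on 5 classes of Phase 1 RUNX1 score left both differences past the threshold. The classes were split by LP peaks of these same 2 factors. At primed sites 91.8% of LP p300 and 86.1% of LP Med12 peaks were kept, so the differences are not independent of the rule. At primed sites with LP p300 alone, and so without LP Med12, Phase 1 Med12 was listed at 78.6% (interval 76.4% to 80.7%). At constant sites the shares were 91.9% and 90.9%.

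CTCF, the insulator and loop-anchor protein, was listed in Phase 1 at 273 primed sites (12.1%, interval 10.8% to 13.5%) and at 443 unprimed sites (5.01%, interval 4.58% to 5.49%; odds ratio 2.61, adjusted exact p = 3.003e-29). LP CTCF was listed at 244 primed sites, and 222 had CTCF in both stages. The share at constant sites was 16.4%.

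**Figure D2:**
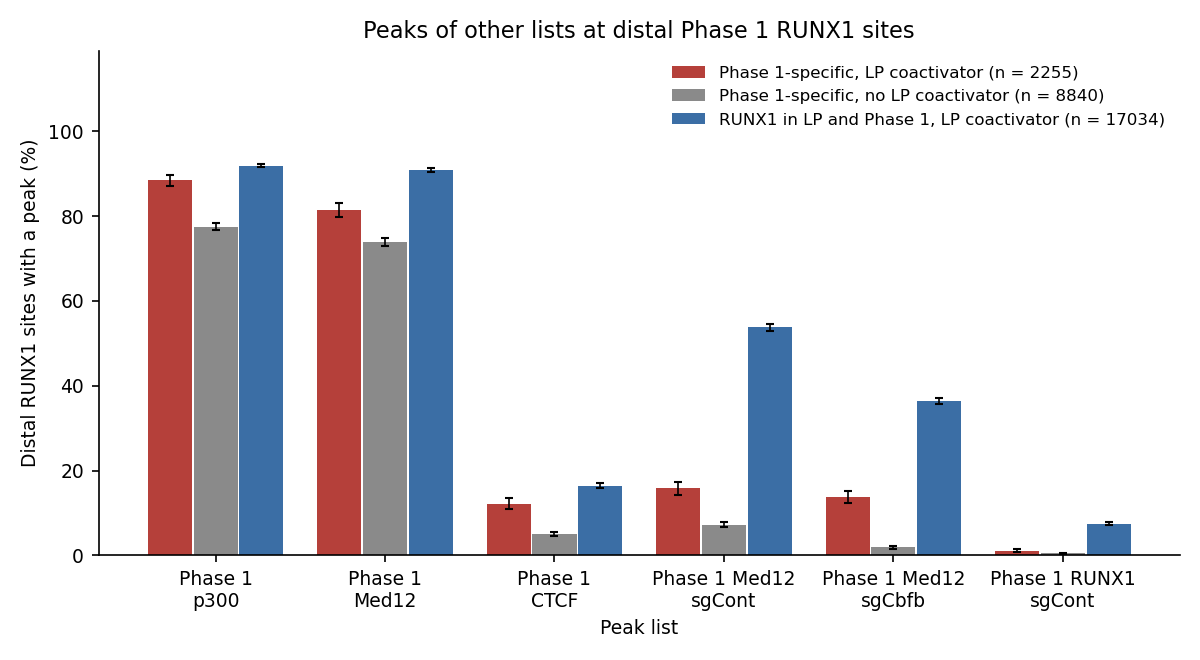
Share of distal Phase 1 RUNX1 sites (vertical axis, %) that overlap a peak of 6 other lists, with 95% Wilson intervals, for 2255 primed (red), 8840 unprimed (grey) and 17034 constant sites (blue). Primed sites lie between the other classes in all 6 lists, near the constant sites for Phase 1 p300 (88.5% and 91.9%) and far below them for sgCont Med12 (15.8% and 53.8%).

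Listed coactivator centres lay slightly nearer to the RUNX1 centre in Phase 1 than in LP, at primed and at constant sites. At primed sites the LP p300 centre lay a median of 26 bp from the RUNX1 centre and the Phase 1 p300 centre 23 bp. For Med12 the medians were 32 bp in LP and 22 bp in Phase 1, and the share of Med12 centres within 50 bp was 69.8% (interval 66.7% to 72.8%) in LP and 84.9% (83.2% to 86.5%) in Phase 1. These stages cover unlike sets of primed sites, 855 in LP and 1837 in Phase 1 for Med12. At constant sites the Med12 medians were 24 and 18 bp, with 79.8% and 88.5% within 50 bp. Where a factor was listed in both stages at unequal distances, the Phase 1 centre was the nearer at 1007 of 1833 primed sites for p300 (54.9%) and 51.3% of constant sites (odds ratio 1.16). For Med12 it was the nearer at 457 of 720 primed sites (63.5%) and 59.0% of constant sites (odds ratio 1.21). Both odds ratios were small. The LP peaks measured at primed sites are those that let the sites in, and most were low-scored, so a move at the sites is not shown. Both classes rest on lists that the rule used, so these shares are a description and no test is given. Under the alternatives the odds ratios ran from 1.15 to 1.345 for p300 and from 1.16 to 1.32 for Med12.

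Med12 peaks at these sites were next compared between the sgCont and sgCbfb lists of Phase 1. The study also reports that disruption of Cbfb impaired progress of these cells after Notch stimulation. Whether Med12 at the sites needs RUNX proteins directly was not tested. The sgCont and sgCbfb Med12 lists reached a minority of primed sites. Med12 was listed in sgCont at 356 primed sites (15.8%, interval 14.3% to 17.4%) and at 642 unprimed sites (7.26%, interval 6.74% to 7.82%; odds ratio 2.39, adjusted exact p = 1.37e-31). Of the 356, 117 were also in the sgCbfb list (32.9%, interval 28.2% to 37.9%) and 239 (67.1%) were not. Of the 642 unprimed sites, 53 were also in sgCbfb (8.26%, interval 6.37% to 10.6%) and 589 (91.7%) were not. Over all distal Phase 1 RUNX1 sites with sgCont Med12, 50.9% were absent from sgCbfb. Both Phase 1-specific classes lay above this background. The kept share was higher at primed sites by 24.6 points (interval 19.4 to 29.99; odds ratio 5.44, adjusted exact p = 1.58e-21).

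The kept share varied with the LP state. Med12 was kept at 31 of 187 primed sites with LP p300 alone (16.6%, interval 11.9% to 22.6%), above the 8.26% (interval 6.37% to 10.6%) of unprimed sites, at 22 of 40 with LP Med12 alone (55.0%, interval 39.8% to 69.3%) and at 64 of 129 with both (49.6%, interval 41.1% to 58.1%). With either Med12 class, 86 of 169 were kept (50.9%, interval 43.4% to 58.3%), near the 53.1% (interval 52.1% to 54.2%) of 9156 constant sites. The odds ratio for all primed against unprimed sites stayed between 5.11 and 9.48 under all alternatives, including matching on RUNX1 score or on sgCont Med12 score and leaving out sites with CTCF or sites within 2 kb of a start.

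The sgCbfb list also held Med12 peaks that the sgCont list did not. At primed sites there were 191 of these beside 239 found in sgCont alone, so the totals were close, at 308 in sgCbfb and 356 in sgCont. At unprimed sites 111 were in sgCbfb alone and 589 in sgCont alone, with totals of 164 and 642. Sites with both LP factors had more Med12 peaks in sgCbfb (164 of 632, 25.9%) than in sgCont (129, 20.4%), and sites with LP p300 alone had fewer (106 and 187 of 1400). Seen from the sgCbfb list, 38.0% of its primed peaks (interval 32.7% to 43.5%), 32.3% of its unprimed peaks (25.6% to 39.8%) and 78.4% of its constant peaks were in sgCont. Recovery between the lists was thus incomplete in both directions.

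**Figure D3:**
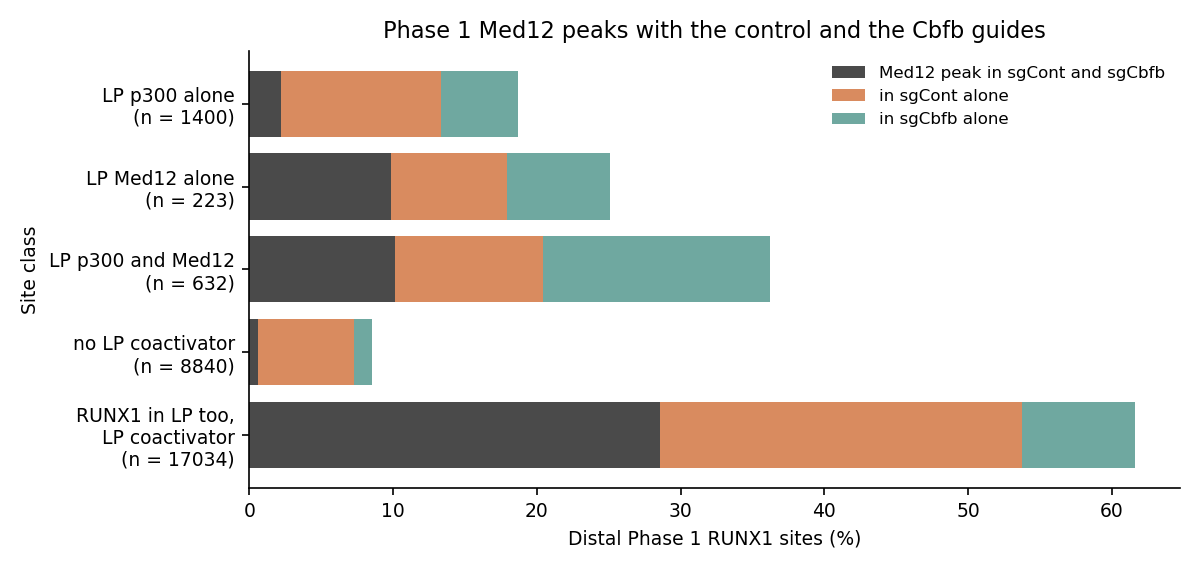
Share of sites (horizontal axis, %) with a Phase 1 Med12 peak in sgCont and sgCbfb (dark), in sgCont alone (orange) or in sgCbfb alone (green), for the 3 subclasses of primed sites, unprimed sites (no LP coactivator) and constant sites (RUNX1 in LP too). Sites with both LP factors had Med12 in sgCbfb alone at 15.8%, and unprimed sites at 1.26%.

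The RUNX string differed along the same division. Primed sites with Med12 in sgCont alone held a RUNX string at 71 of 239 (29.7%, interval 24.3% to 35.8%), those in both lists at 13 of 117 (11.1%, interval 6.61% to 18.1%) and those in sgCbfb alone at 13 of 191 (6.81%, interval 4.02% to 11.3%). Windows 2 kb to the side of all primed sites held it at 5.21%. The order was the same at unprimed sites (38.2%, 15.1% and 13.5%) and at constant sites (41.6%, 21.4% and 12.0%), so it was not particular to primed sites. Other features moved with it. Sites in both lists more often had LP Med12 (73.5% against 34.7% in sgCont alone), CTCF of either stage (30.8% against 13.8%) and an LP RUNX1 peak nearer than 1000 bp (35.0% against 22.2%), and the part of these in the result was not tested. The median Phase 1 RUNX1 score was 56.5 for sgCont alone, 44.4 for both and 21.4 for sgCbfb alone.

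**Figure D4:**
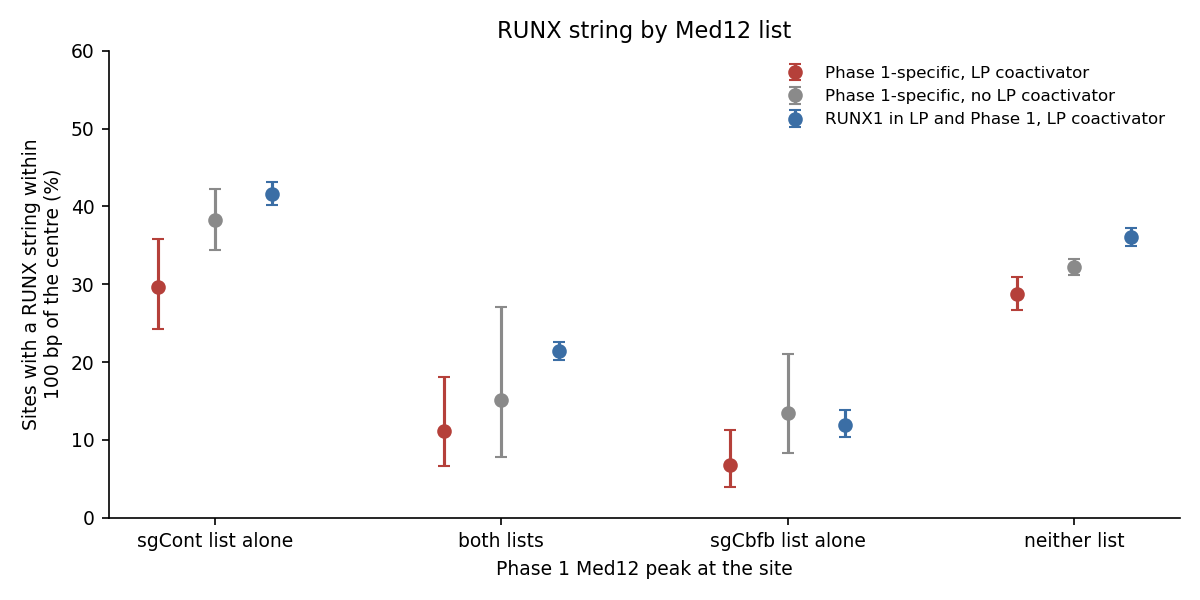
Share of sites with a RUNX string within 100 bp of the RUNX1 peak centre (vertical axis, %, with 95% Wilson intervals), by the Med12 list in which the site was found. In all 3 classes the share is highest for sgCont alone or neither list and lower for both lists and for sgCbfb alone, falling from 29.7% to 6.81% at primed sites (red).

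The guide lists for RUNX1 hardly reached primed sites. The sgCont RUNX1 list of Phase 1 held 23 of them (1.02%) and 43 unprimed sites (0.486%; odds ratio 2.11, adjusted exact p = 0.00736), a difference that was lost when matched on RUNX1 score (odds ratio 1.36). Of the 23, 14 were also in sgMed12 (60.9%, interval 40.8% to 77.8%) and 9 were not, and of the 43, 21 were (48.8%, interval 34.6% to 63.2%). The background absent from sgMed12 was 28.9%. The difference of 12.0 points had an interval from -12.7 to 34.2 (adjusted exact p = 0.477), so the 2 classes could not be told apart at this number of sites. The sgCont RUNX1 list of LP held 5 primed sites, 2 of them among the 10 highest-scored, and 2 unprimed sites (odds ratio 9.82, adjusted exact p = 0.00725). RUNX1 was therefore listed in LP at these 5 sites by other libraries. With no LP RUNX1 peak allowed within 500 bp the odds ratio was 4.10 and the call was lost.

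Sequence under the peaks set primed sites apart from unprimed ones in several strings. The strings were those of RUNX, PU.1 and AP-1 as above, GTGGGAA for RBPJ and CAGCTG for E-box factors. CTTTGAT or CTTTGAA was read for TCF proteins. The motif AGATAAG was read for the zinc-finger factors of the Gata family, and a CTCF consensus completed the set of 8, all on both strands. A match describes letters and not a bound factor. The RUNX string was found at 589 primed sites (26.1%, interval 24.3% to 28.0%) and 32.3% of unprimed sites (odds ratio 0.742, adjusted exact p = 3.27e-08). All distal Phase 1 RUNX1 sites held it at 31.5%, and the flanking windows of primed sites at 5.21%. It was least frequent at the 632 sites with both LP factors (18.0%, interval 15.2% to 21.2%), against 29.5% (interval 27.2% to 31.9%) with LP p300 alone. None of the 8 strings was found at 820 primed sites (36.4%).

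The PU.1, E-box and CTCF strings were more frequent at primed than at unprimed sites. PU.1, an Ets factor of progenitor, myeloid and B cells, had its string at 228 primed sites (10.1%) and 6.54% of unprimed sites (odds ratio 1.61, adjusted exact p = 4.71e-08), a call that was lost when an LP coactivator score of at least 30 was required (odds ratio 1.28). Sites with LP Med12 alone held it at 42 of 223 (18.8%, interval 14.2% to 24.5%), and sites with LP p300 alone at 8.14% (interval 6.82% to 9.69%). The E-box string, read by E proteins such as E2A, was found at 490 primed sites (21.7%) and 14.9% of unprimed sites (odds ratio 1.59, adjusted exact p = 6.54e-14). It was at 24.5% with LP p300 alone and at 9.87% with LP Med12 alone, where the flanks held 9.42%. The CTCF string was rare, at 18 primed sites (0.798%) and 21 unprimed sites (0.238%; odds ratio 3.38, adjusted exact p = 0.000719), and 17 of the 18 had a CTCF peak. That call was lost at a RUNX1 score of at least 30 (odds ratio 2.80).

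The RBPJ, AP-1 and GATA strings were less frequent at primed than at unprimed sites. The RBPJ string was found at 106 primed sites (4.70%, interval 3.90% to 5.65%), near their flanks (3.84%), and at 7.72% of unprimed sites (odds ratio 0.590, adjusted exact p = 5.2e-07). The AP-1 string was found at 291 primed sites (12.9%) and 15.6% of unprimed sites (odds ratio 0.802, adjusted exact p = 0.00222), a difference that was gone at a RUNX1 score of at least 30 (odds ratio 0.987). Among primed sites it was more frequent where Phase 1 Med12 was listed (14.3%, interval 12.8% to 16.0%) than where it was not (6.70%, interval 4.67% to 9.51%), whereas the RUNX string was at 26.3% and 25.4%. The TCF string did not pass the test (7.76% and 8.92%, adjusted exact p = 0.097), and the GATA string did narrowly (3.73% and 4.77%, adjusted exact p = 0.0375), with the call lost under 3 alternatives.

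Of the 4 strings tested against constant sites, AP-1 was more frequent at primed sites, at 12.9% against 8.01% (odds ratio 1.70, adjusted exact p = 5.19e-13). The PU.1 string was less frequent than at constant sites (12.5%; odds ratio 0.787, adjusted exact p = 0.00157), though not with promoter peaks kept (odds ratio 1.01), and RBPJ was not distinguishable (4.87%; difference -0.174 points, interval -1.04 to 0.830). The RUNX string was lower than the 31.4% of constant sites (odds ratio 0.773, adjusted exact p = 5.2e-07), but not when matched on RUNX1 score (odds ratio 0.984), at a RUNX1 score of at least 30 (0.902) or with promoter peaks kept (1.05).

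**Figure D5:**
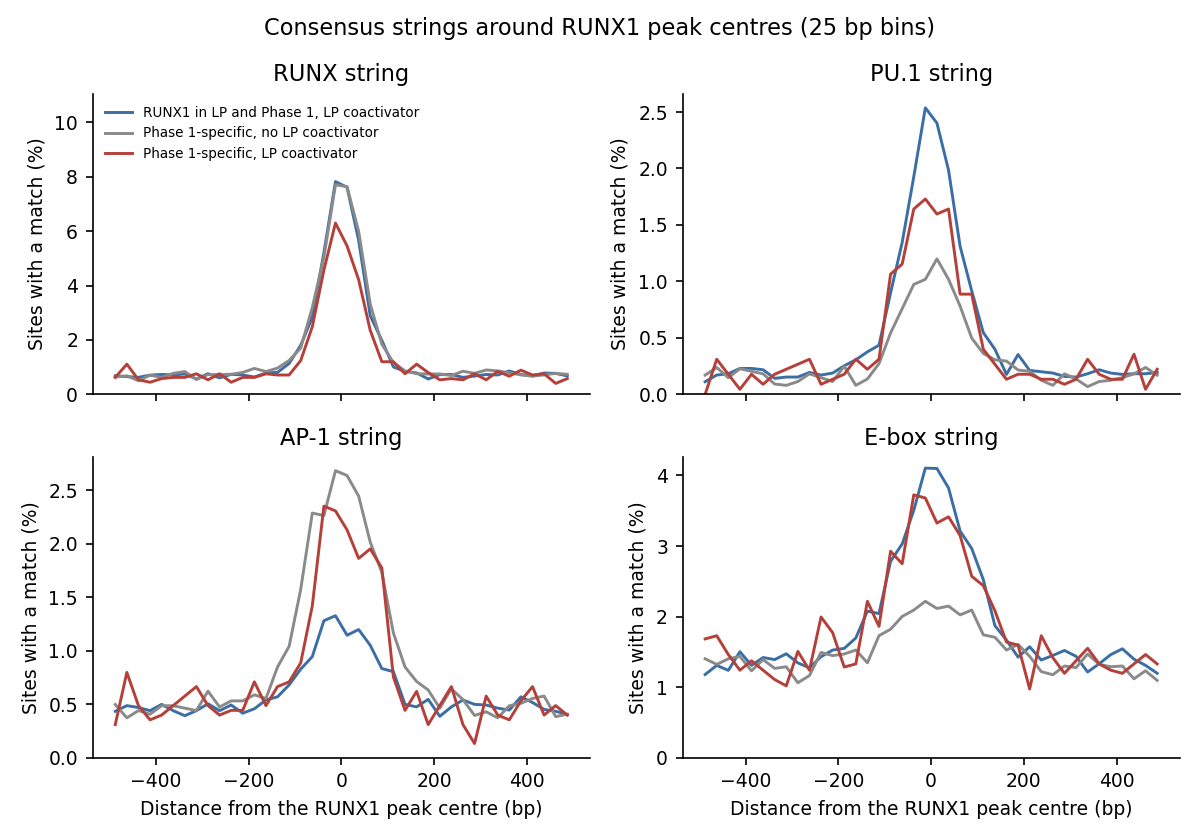
Share of sites with a match in each 25 bp bin (vertical axis, %) by distance from the RUNX1 peak centre (horizontal axis, bp) for 4 strings at primed (red), unprimed (grey) and constant sites (blue). All 4 peak at the centre in each class, with primed sites between the other classes for PU.1 and AP-1 and close to constant sites for the E-box string.

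Notch1-IC was looked up next. The Phase 1 and Phase 2 lists held 152 and 352 peaks, so only a small share of any class of this size can overlap them. A Notch1-IC peak of Phase 1 or Phase 2 overlapped 13 primed sites (0.576%) and 60 unprimed sites (0.679%; odds ratio 0.848, adjusted exact p = 0.69), with a difference of -0.102 points (interval -0.410 to 0.332), and all distal Phase 1 RUNX1 sites had a share of 0.954%. All 13 primed sites had LP p300, Phase 1 p300 and Phase 1 Med12, as did 90.1%, 88.5% and 81.5% of all primed sites. LP p300 is part of the rule. Med12 was in sgCont at 12 of the 13 and in sgCbfb at 1, against 15.8% and 13.7% of all primed sites. These shares are not matched on score. The 13 sites had RUNX1 scores from 22.6 to 164.3, the 10 highest from 68.7 up, against a median of 26 over all primed sites. Primed sites with Med12 in sgCont alone had a median RUNX1 score of 56.5, and those in neither guide list 24.3. LP Med12 was listed at 2 of the 13 (37.9% of all primed sites), the RUNX string at 4 (26.1%) and the RBPJ string at 3 (4.70%). At the Aopep site, in an intron of 2010111I01Rik by GENCODE (chr13:63112617-63112945), RUNX1 scored 164.3, Phase 1 Notch1-IC 24.1 and Phase 2 Notch1-IC 19.7. The site in an intron of St8sia1, a sialyltransferase (chr6:142917413-142917741), had a RUNX1 score of 122.5 and a Phase 2 Notch1-IC score of 43.5. The 1 site with Med12 in sgCbfb lay 198.6 kb before Marcks, in an exon of Gm26535 (chr10:37337326-37337654), with a score of 43.1 in sgCbfb and 28.5 in sgCont. The LP Notch1-IC list, from cells without the ligand, held 1585 peaks. It overlapped 7.51% of constant sites, where the Phase 1 list, of 152 peaks, overlapped 0.458%. Depth and background of these libraries were not compared, so the shares do not show more Notch1-IC binding before the signal. LP Notch1-IC was listed at 8 primed and 9 unprimed sites (odds ratio 3.49, adjusted exact p = 0.0156), and the odds ratio was 1.02 with no LP RUNX1 peak within 500 bp.

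The 10 highest-scored primed sites ran from a RUNX1 score of 186.4 to 431.0, and 5 of them lay within 1 kb after a start although they were not annotated as promoter. Phase 1 Med12 was listed at 8 of them and Phase 1 p300 at 7. In the Cage1 intron (chr13:38009967-38010295) the LP scores were 210.3 for p300 and 96.2 for Med12, the Phase 1 scores were 738.8 and 432.3, and Med12 was listed in sgCont (74.2) and in sgCbfb (30.3). A site 7.66 kb before the let-7 gene Mirlet7a-1 (chr13:48545767-48546095, RUNX1 score 269.1) had Med12 in both guide lists, at 111.8 in sgCont and 103.0 in sgCbfb, and RUNX1 in the sgCont list of LP. In an intron of Cic, a transcriptional repressor, the site 0.323 kb after the start (chr7:25267858-25268186, score 343.3) had LP Med12 and Phase 1 Med12 but no p300. The Tpm3 site (chr3:90080082-90080410, score 235.0) had LP p300, Phase 1 p300 and Phase 1 Med12, and Med12 in sgCont alone. Sites near Anp32e (228.5) and Ubxn11 (207.0) held RUNX strings and had no LP RUNX1 peak nearer than 1000 bp. CTCF of both stages was listed at the Brd2 site (211.0), which lies in a UTR exon of this bromodomain protein gene by GENCODE, and at the Psip1 site (208.2). At the remaining 2, in an intron of Ing5 (chr1:93804160-93804488, score 202.2) and 1.41 kb before Foxo3 (chr10:42277992-42278320, score 186.4), LP Med12 was the single coactivator peak, with none in Phase 1. An LP RUNX1 peak lay 86 and 16 bp from their edges.

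Genes of T-cell development had both primed and unprimed sites nearby. Windows reaching 50 kb beyond both ends of a gene held a primed site for 13 of 35 Notch and T-lineage genes (37.1%), 8 of 20 stem and progenitor genes (40.0%), 8 of 16 myeloid and innate genes (50.0%), 3 of 14 B-lineage genes (21.4%) and 9 of 26 signalling and activation genes (34.6%). For all 21951 protein-coding genes the share was 16.9%. Unprimed sites were near 80.0%, 70.0%, 68.8%, 50.0% and 73.1% of these lists and 43.4% of all genes, so 4 of the 5 lists lay further above all genes than the B-lineage list did for both classes. No list was tested.

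In the T-lineage list the highest-scored primed sites of the 13 genes had RUNX1 scores from 16.1 to 70.0, all 13 with Phase 1 p300 and 12 with Phase 1 Med12. Over all primed sites these shares were 88.5% and 81.5%. Med12 was listed in sgCont at 5 of the 13 and in sgCbfb at 1, against 15.8% and 13.7% of all primed sites. Only the highest-scored site of each gene was counted, so the counts describe these sites and not the list. The Tox site (chr4:6902107-6902435, score 59.7), in an intron of a gene for a nuclear factor of thymocyte development, had a p300 score of 23.9 in the LP list and 138.1 in the Phase 1 list, and a Med12 peak in Phase 1 (79) without one in LP. The site in an exon of C230085N15Rik or of Satb1, a chromatin organiser (chr17:51760130-51760458, score 50.4), had p300 at 18.7 in LP and 142.4 in Phase 1. The LP and Phase 1 lists are not known to share a score scale. A site 6.53 kb before Il2ra, which encodes CD25 (chr2:11636094-11636422, score 53.7), had LP p300 and Phase 1 p300 and Med12, with Med12 in sgCont (16.9) and not in sgCbfb. In a Bcl11b intron (chr12:107928053-107928381, score 39.9), in a gene for a T-lineage commitment factor, LP p300 scored 17.8 and Phase 1 Med12 34.7. The Runx3 site (score 41.1) and the Nrarp site (65.5) also had CTCF of both stages. By contrast the Notch1 site (chr2:26525763-26526091, score 21.2) had LP p300 and LP Med12 and was in the sgCbfb Med12 list (22.2) but not in sgCont. The remaining T-lineage sites, near Gfi1, Zap70, Ets1, Cd247, Lat and Il7r, scored from 16.1 to 70.0.

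For the progenitor genes too, only the highest-scored site of each gene was counted. Over all primed sites LP p300, which is part of the rule, was listed at 90.1%, Phase 1 p300 at 88.5% and Phase 1 Med12 at 81.5%. The shares for Med12 in sgCont and sgCbfb were 15.8% and 13.7%. All 8 progenitor sites had LP p300 and Phase 1 p300, 6 had Phase 1 Med12, 5 had Med12 in sgCont and none had it in sgCbfb. The highest was a site near Myb, a transcription factor of progenitor proliferation, in an exon of Gm48189 by GENCODE and intergenic by the peak annotation (chr10:21100630-21100958, score 114.8), where p300 scored 15.9 in LP, just inside the list, and 205.4 in Phase 1, and where Phase 2 Notch1-IC was listed (24.0). In a Runx1 intron (chr16:92641100-92641428, score 100.5) p300 scored 21.4 in LP and 138.6 in Phase 1. The Ikzf1 intron site (chr11:11716625-11716953, score 30.8), in the gene for Ikaros, had p300 in both stages and no Med12 in any list. The Kit site 0.806 kb after the start (score 33.9) had CTCF of both stages. In the myeloid and innate list all 8 sites had Phase 1 p300 and Med12. Highest was the site near Nfe2 (98.9), a gene that the study counts among the Notch-regulated T-signature genes. Lowest was the Gata1 site (15.3), where LP Med12 was just inside the list at 15. For Irf8, a factor of myeloid and B cells, an intergenic site by the peak annotation (score 24.3) held a PU.1 string and all 4 coactivator peaks. Of the 9 sites of the signalling list, 3 had Med12 in sgCbfb (13.7% of all primed sites), near Nr4a3, Prdm1 and Fosl2. The Nr4a3 site 1.87 kb before the start (chr4:48043271-48043599, score 105.5) had it in both guide lists, at 79.7 in sgCbfb and 65.2 in sgCont, with CTCF of both stages. The Prdm1 site (chr10:44539212-44539540, score 22.9), near the gene for Blimp-1, and the Fosl2 site (chr5:32192126-32192454, score 19.8), near an AP-1 gene, had it in sgCbfb alone, at 20.0 and 17.3.

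Primed sites were spread widely. They lay in introns at 1065 sites (47.2%) and between genes at 1044 (46.3%), with exons, UTRs and gene ends making up nearly all others, and these shares were within a few points in each class. A start lay within 2 kb of 184 primed sites (8.16%, interval 7.10% to 9.36%), 4.71% of unprimed and 9.29% of constant sites. CpG islands were annotated at 2.57%, 0.633% and 3.53%, and LTR repeats at 12.2%, 10.3% and 10.1%. The nearest start belonged to 1917 different genes, of which 1639 had a single primed site and 8 had at least 4. Gm30214 had 5, and Chd7 (a chromatin remodeller), Frmd4a, Gm11186, Gm17746, Jazf1, Mir6368 and Ywhaz had 4 each. Another primed site lay within 10 kb of 121 sites (5.37%), and a constant site within 10 kb of 838 (37.2%), at a median distance of 16.6 kb.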

How the data were processed

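ChIP-seq was done on 34 samples in 17 groups of 2 replicates, with 4 inputs. Reads were aligned to mm10 with Bowtie 1.1.1 and peaks were called with HOMER, per the submitters' processing notes, and kept where reproducible between both replicates. The deposited lists therefore hold 1 peak score per peak, made by the authors with no scale stated in the file headers. No list held a score under 15. Read depth was not used here, so a shorter list can reflect depth, and intervals cover counting error only. Distance to a start is as deposited.

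Peaks sharing at least 1 bp were called overlapping (Python 3.11.15, numpy 2.4.6, pandas 2.3.3, scipy 1.17.1). Shares carry 95% Wilson intervals, differences Newcombe intervals, and classes were compared by two-sided Fisher's exact tests with sample odds ratios, Benjamini-Hochberg adjusted over 26 tests, 22 of which passed 0.05. The tests of kept LP p300 and Med12, and of the p300 and Med12 centres, are among these. They are not used as tests in the text because their classes rest on peaks that the rule used. Their calls are still counted where the settings are compared. Matching used Mantel-Haenszel odds ratios over 5 score classes. Strings were searched in 200 bp around centres on GRCm38 (pysam 0.24.0, samtools 1.23.1), with flanks 2 kb to each side. The analysis was checked on simulated data. Gene places came from GENCODE M21.

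The sites, gene lists and tests were chosen with earlier results of these data known. Sites were named if among the 10 highest RUNX1 scores, the 10 highest with Phase 1 or Phase 2 Notch1-IC, the highest within 50 kb of a listed gene, or the highest of a subclass. Since the gene name column of the Phase 1 RUNX1 list is empty, nearest genes were read from the deposited promoter accession through RefSeq, which matched 2248 of 2255 sites.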

Additional observations from a re-analysis of the deposited data

Results flagged for a closer look

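The share of sgCont Med12 sites that were also in the sgCbfb list differed between primed and unprimed Phase 1-specific RUNX1 sites, at 32.9% and 8.26% (odds ratio 5.44). This was singled out because the same guide comparison gave unlike shares in 2 site classes by a test of the difference itself. Both lists are short beside the lists from cells without guides, and the ChIP-seq of guide-treated cells was described by the study as noisy. No other result met a criterion for a closer look, and no list holds values of single replicates.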

How the results depend on the processing

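The results were recomputed under 6 other settings, string results also in 100 bp windows, and under 3 chosen after seeing the data (sites with CTCF left out, sites within 2 kb of a start left out, and matching on sgCont Med12 score). Of 228 values, 197 were classed as the same, which for a test means that its direction and side of the threshold were kept. The 228 also include the number of primed sites under the settings, which has no threshold. The number of primed sites was 885 with a Phase 1 RUNX1 score of at least 30, 708 with an LP coactivator score of at least 30 and 855 with LP Med12 alone as the coactivator. With a RUNX1 score of at least 30, 6 calls were lost, at odds ratios of 0.987 for AP-1, 2.80 for the CTCF string, 2.81 for LP Notch1-IC, 1.25 for the Med12 centre, 0.902 for RUNX against constant sites and 1.54 for sgCont RUNX1 of Phase 1. With an LP coactivator score of at least 30 those for PU.1 (1.28) and the Med12 (1.22) and p300 (1.19) centres were lost, and RBPJ against constant sites reversed (1.06). Matched on score, LP Notch1-IC (2.43), RUNX against constant sites (0.984) and sgCont RUNX1 of Phase 1 (1.36) were lost, and RBPJ against constant sites reversed (1.11). With no LP RUNX1 peak within 500 bp, GATA (0.812), LP Notch1-IC (1.02), the Med12 centre (1.16), sgCont RUNX1 of LP (4.10) and of Phase 1 (1.71) were lost. At 100 bp shared GATA was lost (0.795). With promoter peaks kept, PU.1 (1.01), RBPJ (1.08) and RUNX (1.05) against constant sites reversed and TCF passed (0.805). Without sites with CTCF the Med12 centre (1.19) and sgCont RUNX1 of Phase 1 (1.81) were lost, and away from starts GATA was lost (0.812) and RBPJ against constant sites reversed (1.01). The causes were not tested. No paired analysis was possible because each list combines its replicates, and for the same reason no replicate could be left out. Counts in the RUNX1 guide lists (23 and 43 sites in sgCont of Phase 1) limit what those lists can show.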
